A study of Mus musculus with 4 samples.

Results

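The 9 genes described here, of 22096 gene symbols in the tables, encode adhesion molecules of the contact between axon and Schwann cell. They were chosen by name: the nectin-like genes Cadm1, Cadm2, Cadm3 and Cadm4, the neurofascin gene Nfasc and its relative Nrcam, the gliomedin gene Gldn, and the contactin genes Cntn1 and Cntn2. All 9 matched a symbol in both tables, with 19 of 28107 transcript rows, and every row had a quantification status of OK. RNA sequencing was done on pooled sciatic nerves of mice of a mixed strain background at postnatal day 7, from Zeb2 cKO mice and from control mice. The targeted gene, Zeb2, makes a DNA-binding protein with zinc fingers, and cKO stands for conditional knockout. The Cre line, the cells in which it acts and the genotype of the controls are not given in the sources used here. The labels describe 2 samples in each group, and 1 table is used here for each group, which the labels list with both of its samples. Each table is treated as 1 library, so no test between the groups was possible.

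Myelinated axons are divided into domains by these proteins. At the node of Ranvier, gliomedin from Schwann cell microvilli binds the axonal form of neurofascin and NrCAM. At the paranode, the glial form of neurofascin faces contactin-1 and its partner Caspr (Cntnap1) on the axon, and at the juxtaparanode contactin-2 joins both membranes with Caspr2 (Cntnap2). Along the internode, CADM4 on the Schwann cell binds CADM3 and CADM2 on the axon, and protein 4.1 and MAGUK scaffolds anchor these complexes inside the cell.

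The neurofascin rows turn on which coding exons a transcript holds, so the exons that tell them apart are shown first. The exons are from GENCODE M21 models (GRCm38, minus strand of chromosome 1) matched by RefSeq accession, where NM_001160316 and NM_001160317 have the same coding exons. NM_001160316, NM_001160317 and NM_001160318 share a pair of exons that NM_182716 lacks, of 116 bases and 205 bases (chr1:132600099-132600214 and chr1:132597765-132597969). The second of the pair holds an Arg-Gly-Asp (RGD) stretch, which belongs to the fibronectin type III repeat known from glial neurofascin, and its codons are in capitals. NM_182716 alone holds an exon of 237 bases (chr1:132588074-132588310) in which 33 of 78 whole codons encode threonine (capitals), the mucin-like region known from axonal neurofascin.
Nfasc exon of 116 bases: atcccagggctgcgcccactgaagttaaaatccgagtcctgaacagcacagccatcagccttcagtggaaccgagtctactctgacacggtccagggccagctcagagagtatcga
Nfasc exon of 205 bases: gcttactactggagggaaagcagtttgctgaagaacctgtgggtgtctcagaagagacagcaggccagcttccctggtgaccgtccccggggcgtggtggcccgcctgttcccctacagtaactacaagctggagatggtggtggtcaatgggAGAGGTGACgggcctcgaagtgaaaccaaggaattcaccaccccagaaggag
Nfasc exon of 237 bases: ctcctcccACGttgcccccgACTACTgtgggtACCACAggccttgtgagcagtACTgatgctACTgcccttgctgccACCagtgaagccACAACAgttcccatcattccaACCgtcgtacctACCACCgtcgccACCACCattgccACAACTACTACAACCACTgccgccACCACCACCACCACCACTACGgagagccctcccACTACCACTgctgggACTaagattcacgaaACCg

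**Figure D1:**
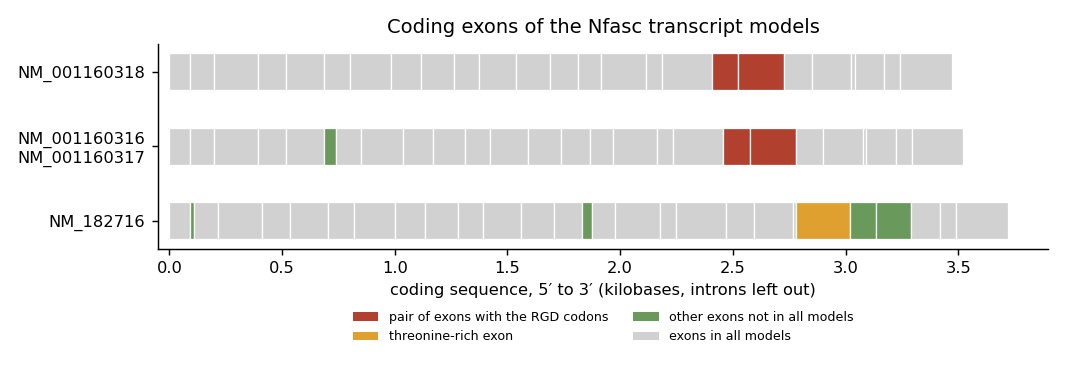
Coding exons of the Nfasc transcript models, drawn to scale from 5′ to 3′ with introns left out (x axis, kilobases of coding sequence). The RGD-bearing pair of exons (red) is in the upper 2 models, of 1157 and 1174 codons, and the threonine-rich exon (orange) is in NM_182716 only, of 1240 codons.

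The libraries differed in depth. Coverage gave an estimated 20288183 reads on RefSeq transcripts in the Zeb2 cKO library and 29729619 in the control library. Counting intervals below are 95% intervals on such estimated reads. They describe counting error and leave out differences between animals or pools. FPKM is the fragment count scaled by transcript length and library size, so levels can be compared between genes. Zeb2 had 19.5 FPKM in the Zeb2 cKO library and 34.4 FPKM in the control library, a ratio of 0.568 (0.548 to 0.588), the direction of the labels. The deleted exons cannot be read from these values. Genes with a mean of at least 1 FPKM over both libraries are called measured, 12903 in all. A gene is counted as lower or higher when log2((FPKM Zeb2 cKO + 1)/(FPKM control + 1)) reaches 1 in size, which is 2-fold. By this rule 806 measured genes were lower (6.25%) and 1109 were higher (8.59%). With Zeb2 cKO values rescaled so that the median gene has a ratio of 1, the split was 959 lower and 777 higher, since the median gene lay at 0.18 on the log2 scale.

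Of the 9 adhesion genes, 5 were lower by at least 2-fold in Zeb2 cKO nerves, Nfasc, Gldn, Cadm3, Cadm4 and Cadm2, and 1, Cntn1, was higher by at least 2-fold. Cadm1 and Nrcam lay within 2-fold, and Cntn2 was below the floor of 1 FPKM in both libraries. Among the 8 measured genes this is 5 lower, beside 6.25% of all measured genes, and 1 higher, beside 8.59%. Nfasc and Cadm2 were below 1 FPKM in Zeb2 cKO nerves and passed the floor through the control library only. At a mean of at least 5 FPKM, which leaves Cadm2 out, 4 were lower. The median log2 ratio over all 9, with Cntn2 included, was -1.47, beside 0.18 over all measured genes. This median is the value of Cadm2. It was -2.29 when 0.1 was added to each FPKM in place of 1, and -0.49 when 5 was added. No other gene in the tables overlaps any of the 9 loci.

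**Figure D2:**
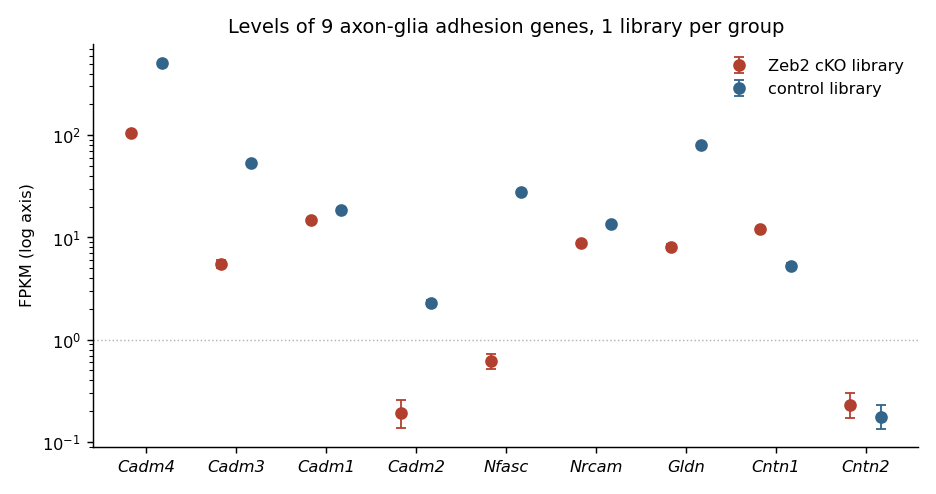
FPKM (y axis, log scale) of each of the 9 genes in the Zeb2 cKO library (red, left of each pair) and the control library (blue, right), with 95% counting intervals, which are smaller than the points for most genes. Nfasc and Cadm2 fall below 1 FPKM (dotted line) in the Zeb2 cKO library only, and Cntn1 is the only measured gene of the 9 that is higher there.

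The order of levels differed between the libraries. In Zeb2 cKO nerves it ran from Cadm4 at 104 FPKM through Cadm1 (14.8), Cntn1 (12.2), Nrcam (8.86), Gldn (8.10) and Cadm3 (5.48) to Nfasc (0.612), Cntn2 (0.230) and Cadm2 (0.192). In control nerves it ran from Cadm4 at 512 FPKM through Gldn (80.3), Cadm3 (53.6), Nfasc (27.7), Cadm1 (18.6), Nrcam (13.5) and Cntn1 (5.31) to Cadm2 (2.30) and Cntn2 (0.176). In Zeb2 cKO nerves Nrcam and Gldn had overlapping counting intervals, as did Cntn2 and Cadm2, while no neighbours in the control order overlapped. Cadm4 was first in both orders, at rank 582 of all measured genes in Zeb2 cKO nerves and rank 108 in control nerves. Gldn held place 5 of 9 in Zeb2 cKO nerves and place 2 in control nerves, and Nfasc held place 7 in Zeb2 cKO nerves and place 4 in control nerves.

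Of the molecules of the Schwann cell side, neurofascin had the lowest ratio. Nfasc (chromosome 1, 134461267 to 134638374, mm9) was at 0.612 FPKM in Zeb2 cKO nerves, an estimated 140 reads, and at 27.7 FPKM in control nerves, an estimated 9435 reads. It was 45.2-fold lower (counting interval 38.8 to 54.6), and 0.589% of measured genes had a lower ratio. Gldn (chromosome 9, 54134293 to 54189584), the secreted and microvillar ligand that gathers nodal proteins, was at 8.10 FPKM in Zeb2 cKO nerves and 80.3 FPKM in control nerves, 9.91-fold lower (9.27 to 10.6). Cadm4 (chromosome 7, 25267042 to 25289552), the internodal receptor of Schwann cells, was at 104 FPKM in Zeb2 cKO nerves and 512 FPKM in control nerves, 4.91-fold lower (4.77 to 5.05). All 3 were thus lower, and to unequal extents.

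The genes whose proteins are known for the axonal side did not move together. Which cells of the whole nerve made the RNA of either side was not tested. Cadm3 (chromosome 1, 175264385 to 175297826), the axonal ligand of CADM4, was at 5.48 FPKM in Zeb2 cKO nerves and 53.6 FPKM in control nerves, 9.79-fold lower (8.98 to 10.7). Cadm2 (chromosome 16, 66655666 to 67621153), another nectin-like ligand, was at 0.192 FPKM in Zeb2 cKO nerves, an estimated 44 reads, and 2.30 FPKM in control nerves, an estimated 780 reads, 11.9-fold lower (8.91 to 16.8). At so low a level the pseudocount weighs on the log2 ratio, which was -1.47 with a pseudocount of 1 and -0.49 with 5, within 2-fold. Cntn1 (chromosome 15, 91881596 to 92172398), contactin-1 of the paranodal axon, was at 12.2 FPKM in Zeb2 cKO nerves and 5.31 FPKM in control nerves, 2.29-fold higher (2.13 to 2.48). Its log2 ratio of 1.06 was just past the limit, 92.4% of measured genes had a lower ratio, and it was 0.87 after rescaling to the median gene. Cntn2 (chromosome 1, 134406002 to 134439517), made by both axons and glia, was at 0.230 FPKM in Zeb2 cKO nerves, an estimated 53 reads, and 0.176 FPKM in control nerves, an estimated 60 reads, and its ratio of 1.31 had a counting interval of 0.879 to 1.91.

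Cadm1 and Nrcam had the smallest differences of the 8 measured adhesion genes. Cadm1 (chromosome 9, 47338435 to 47661468), a widely expressed nectin-like gene, was at 14.8 FPKM in Zeb2 cKO nerves and 18.6 FPKM in control nerves, a ratio of 0.793 (0.745 to 0.844). Nrcam (chromosome 12, 45429872 to 45702833), which acts at the node on the axon and in a form shed from Schwann cell microvilli, was at 8.86 FPKM in Zeb2 cKO nerves and 13.5 FPKM in control nerves, a ratio of 0.655 (0.617 to 0.695). Both ratios lay below 1 as deposited and above 1 when the Zeb2 cKO values were scaled to Sox10, so no direction is given for them.

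**Figure D3:**
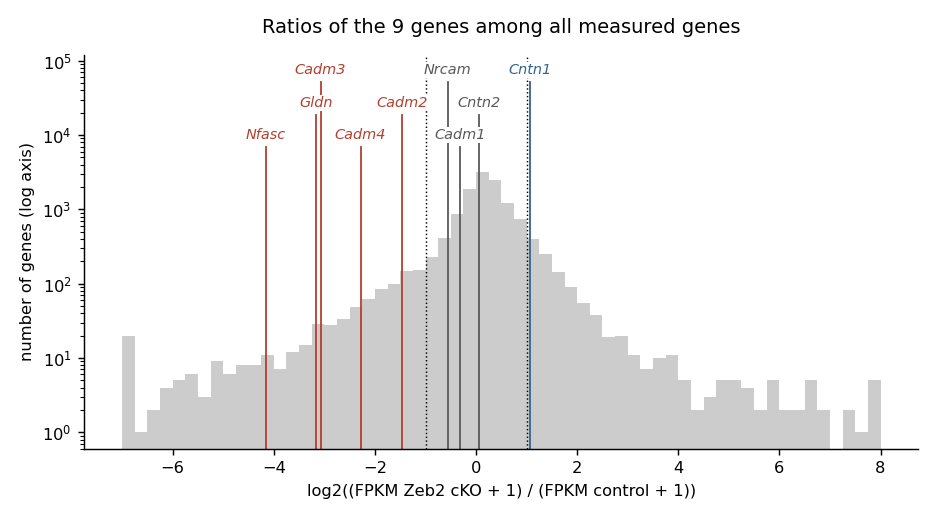
Number of measured genes (y axis, log scale) by log2((FPKM Zeb2 cKO + 1)/(FPKM control + 1)) in bins of 0.25, with the outermost bins holding all genes beyond them, and the 9 genes as lines. Dotted lines mark 2-fold. Nfasc at -4.15, Gldn at -3.16, Cadm3 at -3.08, Cadm4 at -2.29 and Cadm2 at -1.47 lie left of the lower limit, and Cntn1 at 1.06 lies right of the upper one.

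Proportions between genes of the same library do not depend on scaling. Summed over the 4 nectin-like genes, the level was 125 FPKM in Zeb2 cKO nerves and 587 FPKM in control nerves. Cadm4 made up 83.6% of that sum in Zeb2 cKO nerves and 87.3% in control nerves, and Cadm2 0.154% in Zeb2 cKO nerves and 0.391% in control nerves. Cadm1 made up 11.8% in Zeb2 cKO nerves and 3.17% in control nerves, and Cadm3 made up 4.39% in Zeb2 cKO nerves and 9.14% in control nerves. There were 7.07 units of Cadm4 FPKM for each unit of Cadm1 in Zeb2 cKO nerves, against 27.6 in control nerves. The pair of Nfasc and Nrcam, both of the L1 family, had opposite orders: Nfasc made up 6.46% of their summed FPKM in Zeb2 cKO nerves and 67.2% in control nerves. Gldn stood at 0.914 of the Nrcam level in Zeb2 cKO nerves and at 5.94 times it in control nerves. Cntn1 stood at 19.9 times the Nfasc level in Zeb2 cKO nerves and at 0.192 of it in control nerves.

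In whole nerve, fewer cells of a type and less RNA per cell cannot be told apart. Sox10, which marks all stages of the Schwann cell lineage, was at 69.2 FPKM in Zeb2 cKO nerves and 139 FPKM in control nerves. Per unit of Sox10 FPKM, Cadm4 was at 1.51 in Zeb2 cKO nerves and 3.68 in control nerves, and Nfasc was at 0.00884 in Zeb2 cKO nerves and 0.199 in control nerves. Gldn was at 0.117 in Zeb2 cKO nerves and 0.578 in control nerves, and Cadm3 at 0.0792 in Zeb2 cKO nerves and 0.386 in control nerves. The count of adhesion genes lower by at least 2-fold was again 5 after this scaling, which was chosen after the values were seen and moved the median gene to 1.08 on the log2 scale. Cntn1 was at 0.176 per unit of Sox10 in Zeb2 cKO nerves and 0.0382 in control nerves.

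Transcript rows gave the splice forms behind these sums. Reads shared by several forms are divided by the Cufflinks model, and counting intervals do not cover that step. For Nfasc, the 3 rows with the 116-base and 205-base exons shown above summed to 0.612 FPKM in Zeb2 cKO nerves and 27.3 FPKM in control nerves, where they made up 98.6% of the gene. NM_182716, with the threonine-rich exon, had an estimate in effect of 0 in Zeb2 cKO nerves and 0.383 FPKM in control nerves. Within the first group, NM_001160318 was the leading row in control nerves at 15.5 FPKM and was at 0.00134 FPKM in Zeb2 cKO nerves. NM_001160317 was at 0.117 FPKM in Zeb2 cKO nerves and 7.89 FPKM in control nerves. NM_001160316, which starts at the most downstream of the listed start sites, was at 0.494 FPKM in Zeb2 cKO nerves, 80.7% of what remained there, and at 3.88 FPKM in control nerves, 14.0% of the gene. All 4 rows were lower in Zeb2 cKO nerves, and NM_001160316 was the least reduced, at 7.85-fold. The split between rows in Zeb2 cKO nerves rests on few reads, an estimated 140 for the whole gene.

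**Figure D4:**
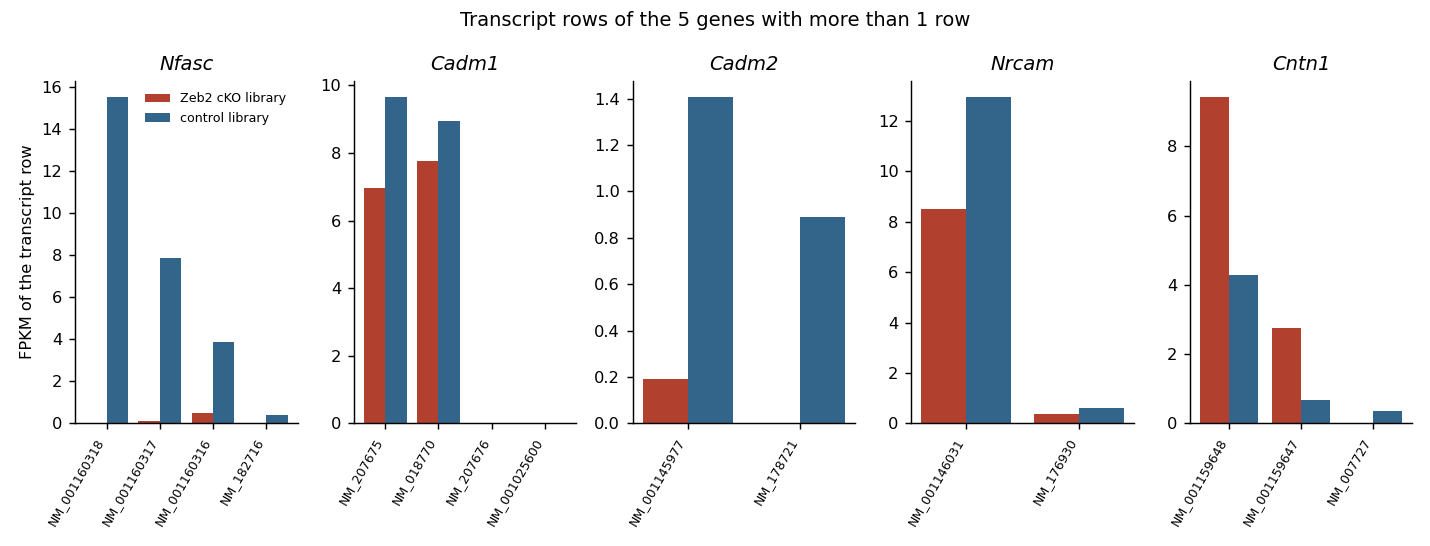
FPKM of each transcript row (y axis, linear from 0, a scale of its own in each panel) of the 5 genes with more than 1 row, in Zeb2 cKO nerves (red) and control nerves (blue). The leading Nfasc row of control nerves, NM_001160318 at 15.5 FPKM, is near 0 in Zeb2 cKO nerves, while the 2 main Cadm1 rows are present in both.

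The 2 main forms of Cadm1 had similar shares in both libraries. The Cadm1 rows differ in a pair of short exons of the stalk next to the membrane (chromosome 9, plus strand, GRCm38), shown with threonine codons in capitals.
Cadm1 exon of 84 bases, chr9:47818734-47818817: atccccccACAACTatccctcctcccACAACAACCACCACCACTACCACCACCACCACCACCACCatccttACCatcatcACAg
Cadm1 exon of 33 bases, chr9:47829377-47829409: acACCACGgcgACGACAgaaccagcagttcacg
NM_207675, which holds both, was at 6.98 FPKM in Zeb2 cKO nerves and 9.65 FPKM in control nerves. NM_018770, which holds the 84-base exon alone, was at 7.78 FPKM in Zeb2 cKO nerves and 8.94 FPKM in control nerves. Rows with the 33-base exon thus made up 47.3% of Cadm1 in Zeb2 cKO nerves and 51.9% in control nerves, and the 2 rows without the 84-base exon were near 0 in both.

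In Cadm2, the row with an extra exon of 27 bases, NM_178721, was at 0.00341 FPKM in Zeb2 cKO nerves, 1.77% of the gene, and 0.889 FPKM in control nerves, 38.8% of the gene, on few reads. In Nrcam, NM_001146031, which lacks a fibronectin-region exon of 153 bases and 2 shorter exons of NM_176930, made up 95.9% of the gene in Zeb2 cKO nerves and 95.6% in control nerves. The 3 Cntn1 rows encode the same 1020 codons and differ in their first exons. NM_001159648, from the most upstream start, was at 9.42 FPKM in Zeb2 cKO nerves and 4.29 FPKM in control nerves. NM_001159647, from the most downstream start, was at 2.76 FPKM in Zeb2 cKO nerves and 0.659 FPKM in control nerves. NM_007727 was in effect at 0 in Zeb2 cKO nerves and at 0.363 FPKM in control nerves. As Cufflinks divided the shared reads, the higher level of Cntn1 lay in the rows of 2 start sites and not in the other one. Use of the start sites was not tested.

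Promoter windows of 250 bases before the start site were available from RefSeq (GRCm38.p6) for 8 of the 9 genes, 11 windows in all, and 5 are printed, from 3 lower genes, from Nrcam within 2-fold and from the higher gene Cntn1. ZEB proteins are known to bind CACCT and its longer form CACCTG. Both were searched on both strands (AGGTG and CAGGTG on the other), as were GCGTGGG for EGR factors and ACAAAG for SOX factors. The short form is contained in the long one and was added after the first search. CACCT was found in 5 of the 11 windows, beside 46.0% of 32851 mouse promoter windows. CACCTG was found in 1, that of Nrcam, beside 17.2%. GCGTGGG and ACAAAG were found in 0 of the 11 windows, beside 4.30% and 16.5%. Capitals mark a match, and a window without capitals holds none of these motifs.
Nfasc, start of NM_001160318, chr1:132707327-132707576, minus strand: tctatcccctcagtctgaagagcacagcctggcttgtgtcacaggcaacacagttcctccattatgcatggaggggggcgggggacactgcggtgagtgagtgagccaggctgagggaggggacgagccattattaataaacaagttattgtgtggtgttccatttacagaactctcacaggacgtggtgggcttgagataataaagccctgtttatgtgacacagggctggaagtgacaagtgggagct
Cadm3, chr1:173367696-173367945, minus strand: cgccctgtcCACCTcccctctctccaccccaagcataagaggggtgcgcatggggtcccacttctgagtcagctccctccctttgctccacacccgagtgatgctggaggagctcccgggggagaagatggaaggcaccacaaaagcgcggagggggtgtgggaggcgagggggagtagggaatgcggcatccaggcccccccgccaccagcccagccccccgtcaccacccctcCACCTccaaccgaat
Cadm4, chr7:24481773-24482022, plus strand: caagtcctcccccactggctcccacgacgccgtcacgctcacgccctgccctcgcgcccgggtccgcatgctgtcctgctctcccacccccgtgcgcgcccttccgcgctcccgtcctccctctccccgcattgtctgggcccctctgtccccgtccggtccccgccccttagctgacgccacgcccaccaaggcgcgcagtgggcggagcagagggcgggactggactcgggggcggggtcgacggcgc
Nrcam, chr12:44328635-44328884, plus strand: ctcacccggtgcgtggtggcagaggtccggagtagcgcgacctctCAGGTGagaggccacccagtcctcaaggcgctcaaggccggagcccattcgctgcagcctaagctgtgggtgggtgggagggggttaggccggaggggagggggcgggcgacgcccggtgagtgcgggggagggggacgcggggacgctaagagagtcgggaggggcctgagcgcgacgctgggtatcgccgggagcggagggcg
Cntn1, start of NM_001159648, chr15:92050915-92051164, plus strand: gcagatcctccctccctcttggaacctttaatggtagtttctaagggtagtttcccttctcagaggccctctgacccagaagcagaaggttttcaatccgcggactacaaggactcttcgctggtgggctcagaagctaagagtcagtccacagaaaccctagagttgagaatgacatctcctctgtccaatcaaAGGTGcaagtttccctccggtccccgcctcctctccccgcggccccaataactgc
Of the genes lower in Zeb2 cKO nerves, Nfasc, Gldn and Cadm4 had no match in their windows, Cadm3 had CACCT at -241 and -15 from the start site, and Cadm2 had it at -222 and -211. No window was available for the most upstream of the listed Nfasc start sites. Cntn1, the higher gene, had CACCT in 2 of its 3 windows, at -55 and -194. Nrcam, within 2-fold, had the long form at -205, and Cntn2 had no match. Matches thus stood in windows of lower and higher genes alike. The Nfasc and Cntn1 windows were assigned to their rows because the listed start sites lie equally far apart in both builds.

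Inside the cell the internodal and paranodal complexes are tied to scaffolds. Of 18 measured scaffold genes, 3 were lower, 3 were higher and 12 lay within 2-fold. Over all measured genes, 6.25% were lower and 8.59% higher. The scaffold genes had a median log2 ratio of 0.36, beside 0.18 over all measured genes. The count of higher scaffold genes was 1 after rescaling to the median gene and 0 with a pseudocount of 5. Epb4.1l2, protein 4.1G, which links CADM4 to the Schwann cell cytoskeleton, was at 70.0 FPKM in Zeb2 cKO nerves and 224 FPKM in control nerves, 3.20-fold lower. Mpp6, a MAGUK protein that joins 4.1G in Schwann cells, was at 9.74 FPKM in Zeb2 cKO nerves and 53.2 FPKM in control nerves, 5.46-fold lower. Ank1, an ankyrin best known from red cells, was 5.91-fold lower. Mpp2, the junction protein afadin (Mllt4) and Farp1, a guanine nucleotide exchange factor, were 4.43-fold, 2.26-fold and 2.42-fold higher. Epb4.1l3, protein 4.1B of the paranode and internode, was at 29.8 FPKM in Zeb2 cKO nerves and 16.9 FPKM in control nerves, and Ank3, ankyrin-G of the node, at 13.5 FPKM in Zeb2 cKO nerves and 15.0 FPKM in control nerves, both within 2-fold.

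Partners at the paranode and juxtaparanode went both ways. Of 10 measured genes, 3 were lower and 2 higher, beside 6.25% and 8.59% of all measured genes. Their median log2 ratio was 0.33, beside 0.18 over all measured genes. The higher count was 1 after rescaling to the median gene and 0 with a pseudocount of 5. Kcna1 and Kcna2, subunits of the potassium channels clustered at the juxtaparanode, were at 4.90 and 3.38 FPKM in Zeb2 cKO nerves and at 83.9 and 19.9 FPKM in control nerves. Adam23, a receptor of the LGI family, was 9.60-fold lower. Cntnap1, the Caspr partner of contactin-1, was at 3.88 FPKM in Zeb2 cKO nerves and 1.15 FPKM in control nerves, 3.37-fold higher, so that Caspr and Cntn1 were both higher. Dlg4, a synaptic scaffold, was 2.15-fold higher with a log2 ratio of 1.00. Lgi4, a Schwann cell ligand needed for myelination, was at 65.6 FPKM in Zeb2 cKO nerves and 38.7 FPKM in control nerves, within 2-fold.

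Around gliomedin, the genes of the microvillar and internodal membrane differed in direction. Of 13 measured, 5 were lower and 2 higher, beside 6.25% and 8.59% of all measured genes. Their median log2 ratio was -0.36, beside 0.18 over all measured genes. The lower ones were Mag, Drp2, Prx, Gjb1 and Utrn, proteins of the internodal membrane and its dystroglycan complexes, by 86.8-fold, 40.6-fold, 25.9-fold, 7.01-fold and 3.87-fold. The ERM genes of the microvilli lay within 2-fold: Ezr was at 32.8 FPKM in Zeb2 cKO nerves and 42.2 FPKM in control nerves, Rdx at 40.2 FPKM in Zeb2 cKO nerves and 46.5 FPKM in control nerves, and Msn at 77.0 FPKM in Zeb2 cKO nerves and 68.1 FPKM in control nerves. Dag1, dystroglycan itself, was also within 2-fold, at 163 FPKM in Zeb2 cKO nerves and 226 FPKM in control nerves. Of the proteoglycan genes, Sdc4 and Vcan were 3.35-fold and 3.49-fold higher, and Sdc3 lay within 2-fold, at 79.2 FPKM in Zeb2 cKO nerves and 48.6 FPKM in control nerves. Of 4 measured nodal channel genes, 0 were lower and 1 was higher, beside the same shares of all measured genes. The higher one was the sodium channel subunit Scn2b, at 2.17 FPKM in Zeb2 cKO nerves and 0.551 FPKM in control nerves. The other 3 lay within 2-fold by the log2 rule. Of these, Scn4b was at 0.925 FPKM in Zeb2 cKO nerves and 2.45 FPKM in control nerves. That is 2.65-fold lower as a plain FPKM ratio (counting interval 2.11 to 3.36). The count of lower channel genes was 1 with a pseudocount of 0.1. The count of higher channel genes was 0 after rescaling to the median gene and 2 with no floor. Scn3a, at 1.61 FPKM in Zeb2 cKO nerves and 0.104 FPKM in control nerves, averaged under 1 FPKM. Scn3b, another subunit, had the highest level of that list, at 37.1 FPKM in Zeb2 cKO nerves and 31.0 FPKM in control nerves.

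**Figure D5:**
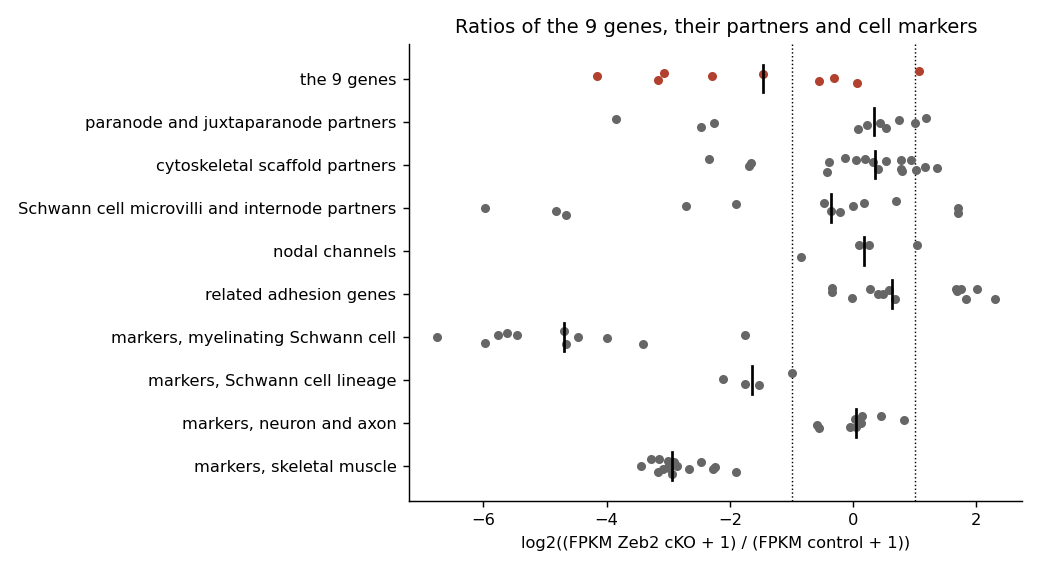
Log2 ratio with pseudocount 1 (x axis) of the 9 genes (red) and of the measured genes of each list (grey points, a point per gene), with list medians as black bars and 2-fold limits as dotted lines. The 9 genes, with Cntn2 below the floor included, have a median of -1.47. Of the marker lists, myelinating Schwann cells are at -4.69, skeletal muscle at -2.95, Schwann cell lineage at -1.64 and neuron and axon at 0.05.

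Marker lists did not all move alike. All 11 markers of myelinating Schwann cells were lower, with a summed level of 1339 FPKM in Zeb2 cKO nerves and 28657 FPKM in control nerves, and 0 were at 0 in either. Those with the highest mean over both libraries were Pmp22, at 471 FPKM in Zeb2 cKO nerves and 12153 FPKM in control nerves, and Mbp, at 488 FPKM in Zeb2 cKO nerves and 10825 FPKM in control nerves. Of 4 lineage markers 3 were lower, and Sox10 was just within 2-fold, with summed levels of 302 FPKM in Zeb2 cKO nerves and 966 FPKM in control nerves and a median of -1.64. Of 9 measured neuron and axon markers 0 were past 2-fold, and the 11 listed genes summed to 51.9 FPKM in Zeb2 cKO nerves and 53.8 FPKM in control nerves, with Uchl1 and Gap43 highest by the mean of both libraries. Cadm3, whose protein is known from the axon, had 5.48 FPKM in Zeb2 cKO nerves and 53.6 FPKM in control nerves. Which cells made that RNA was not tested. All 17 skeletal muscle markers were lower, with a summed level of 992 FPKM in Zeb2 cKO nerves and 8128 FPKM in control nerves and a median of -2.95, with Acta1 and Mylpf highest by that mean, and 0 were at 0 in either. The part of muscle and of cell makeup in the ratios of the 9 genes was not tested.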

How the data were processed

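Libraries were made from 1 ug of total nerve RNA with an Illumina TruSeq kit, per the labels' protocols. Reads were processed with CASAVA, TopHat, Cufflinks and Cuffdiff on mm9, per the submitters' processing notes, without versions. The deposited FPKM values are the authors' Cufflinks estimates per RefSeq transcript. The deposited coverage signal is read depth per base, unscaled. Transcript length was taken from the same tables.

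Both tables hold the same 28107 rows. Rows not OK in either library (295) were left out, and FPKM was summed per symbol (21965 genes). Coverage divided by FPKM was 1.28 in the Zeb2 cKO library and 1.87 in the control library, so the control depth was 1.47 times the other. Reads were estimated from coverage and length at 52.6 bases per read. That is the median of 479 products of coverage and length between 35 and 75, taken as single reads, in single-transcript genes over 2000 bases (10th to 90th percentile 46.6 to 60.2). Intervals are Clopper-Pearson for ratios and exact Poisson for levels. Use of a bias correction is not stated. Whether reads were counted by strand is not stated either. FPKM keeps no counts, so no count model was used.

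All 9 genes and their rows are named, and from each partner list the genes past 2-fold, else those with the highest levels. Some others were chosen after their values were seen. Genes most like a member were not sought, since each gene has 1 ratio. The members and lists were chosen with earlier results of these data known. One listed marker is not reported here. Protein sequences were not used here. Ratio code was tested on simulated data. Alternatives were other pseudocounts, scalings, filters and thresholds. Python 3.11.15, pandas 2.3.3, numpy 2.4.6, scipy 1.17.1 and matplotlib 3.10.9 were used.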

Additional observations from a re-analysis of the deposited data

How the results depend on the processing

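No paired analysis was possible because each group has a single table, and leaving out a library would leave a group empty. Whether a table is from a single sample of its group or from both could not be worked out. Nfasc, Gldn, Cadm3 and Cadm4 stayed 2-fold or more lower in all 9 alternatives that gave a ratio. Some of these could not differ from the main result. Every row of the 9 genes was OK, so rows of every status gave the same sums. Coverage over its median per FPKM gives FPKM back. The top transcript row is the whole gene for Gldn, Cadm3 and Cadm4. Cadm2 stayed 2-fold or more lower in 8 of 9, the exception being a pseudocount of 5 (-0.49). The count of lower adhesion genes was 4, against 5, there, with the top transcript row, at 4-fold and at a mean of at least 5 FPKM. Cntn1 stayed 2-fold higher in 4 of 9, and its log2 ratio over the 9 lay between 0.74 and 2.01. Those 4 were a pseudocount of 0.1, scaling to Sox10, rows of every status and coverage, of which the last 2 could not differ. With a pseudocount of 0.1 the median of the 9 genes was -2.29, and with 5 it was -0.49. The count of adhesion genes 2-fold or more higher was 0, against 1, with a pseudocount of 5, after rescaling to the median gene, by the upper quartile or by the sum without myelin and muscle markers, with the top transcript row, and at 4-fold. Cadm1 and Nrcam were above 0 only when scaled to Sox10, at 0.64 and 0.37. Over all measured genes, lower and higher counts were 529 and 477 with a pseudocount of 5, 1266 and 2537 at 1.5-fold, 318 and 221 at 4-fold, and 414 and 7853 when scaled to Sox10, and 739 were higher at a mean of at least 5 FPKM. Among partner lists, higher counts moved most: under the scalings by the median gene, upper quartile and sum without markers they were 1 of 10 for the paranode and 0 of 4 for nodal channels, and scaled to Sox10 they were 6 and 4. Higher scaffold genes numbered 7 at 1.5-fold and 11 scaled to Sox10. Fewer genes pass a higher threshold by construction. Depth limits Cntn2, with 53 estimated reads in Zeb2 cKO nerves and 60 in control nerves, and the Cadm2 level in Zeb2 cKO nerves, with 44.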

Other observations

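Relatives of these adhesion genes were mostly level or higher. Of 14 measured relatives (of the L1 and nectin families, Ncam1 and olfactomedin-domain genes like Gldn), 0 were lower and 6 were higher. Over all measured genes, 6.25% were lower and 8.59% higher. The relatives had a median log2 ratio of 0.63, beside 0.18 over all measured genes. The 4 other contactin genes listed were below 1 FPKM. Chl1, close homolog of L1 and a relative of Nfasc and Nrcam, was at 21.1 FPKM in Zeb2 cKO nerves and 4.49 FPKM in control nerves, 4.69-fold higher. Ncam1, a neural cell adhesion molecule of immature and nonmyelinating Schwann cells, was at 75.6 FPKM in Zeb2 cKO nerves and 14.6 FPKM in control nerves. L1cam was at 6.33 FPKM in Zeb2 cKO nerves and 8.28 FPKM in control nerves, within 2-fold.

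Of 7 measured olfactomedin-domain genes other than Gldn, 4 were higher and 3 lay within 2-fold. Olfml3, Olfml2b and Olfml2a, which encode secreted matrix proteins, were at 146, 82.2 and 49.7 FPKM in Zeb2 cKO nerves and at 42.9, 22.3 and 14.9 FPKM in control nerves, 3.41-fold, 3.69-fold and 3.33-fold higher. Olfm4 was 9.68-fold higher on few reads, an estimated 132 in Zeb2 cKO nerves and 20 in control nerves. Of 9 fibroblast markers 4 were higher and 5 lay within 2-fold, beside 8.59% of all measured genes higher. The median log2 ratio of these markers was 0.96, beside 0.18 over all measured genes, and all 9 were above 0. They summed to 9289 FPKM in Zeb2 cKO nerves and 5645 FPKM in control nerves, with Col3a1 and Col1a2 highest by the mean of both libraries. Their part in these ratios was not tested.

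Perineurial markers were higher for 6 of 8, with summed levels of 281 FPKM in Zeb2 cKO nerves and 85.0 FPKM in control nerves, with Cldn1 and Slc2a1 highest by that mean, while Itgb4, within 2-fold, was highest in control nerves. Endothelial markers, with Cldn5 and Cdh5 highest by that mean, had 0 of 7 past 2-fold and summed to 225 FPKM in Zeb2 cKO nerves and 140 FPKM in control nerves. Macrophage markers, with Csf1r and Mrc1 highest, had 0 of 7 past 2-fold and summed to 50.6 FPKM in Zeb2 cKO nerves and 47.7 FPKM in control nerves. Of 8 markers of immature and nonmyelinating Schwann cells 5 were higher and 1, Ngfr, was lower. Gfap and Cdh19 were highest by the mean of both libraries, Gfap and Ncam1 in Zeb2 cKO nerves, and Ngfr and Cdh19 in control nerves. Of 3 measured melanocyte markers, with Pmel and Mitf highest by the mean, 2 were lower.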
